A study of Mus musculus with 6 samples.

Results

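The transcripts described here are 10 genes of the stromal progenitors of fat and of the PDGF receptors: Pdgfra, Pdgfrb, Pdgfrl, Dpp4, Pi16, Cd34, Ly6a, Dpt, Zfp423 and Pref1. They were taken by the gene name in the scanner files, with all probes of each. Pdgfrl was chosen on its difference between the genotypes in these same arrays, and the other genes with results of this comparison known, so their differences are given as a description, with no test. Of the 10 names, 9 were gene names on the array. Pref1 is an older name of Dlk1 in the gene table, so its probes were read under Dlk1. In this way 15 of 41174 array probes were found, and all 15 were well above background on all 6 arrays and saturated on 0. Of all probes, 27986 were well above background on at least 3 arrays and entered the fit.

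Each array held RNA of epididymal white adipose tissue, the fat depot beside the testis, of 1 male C57BL/6 mouse aged 9 to 10 weeks. The 3 patDp/+ mice carry, on the chromosome inherited from the father, a duplicated stretch of chromosome 7 that corresponds to the human region 15q11-13, and the 3 wild type mice do not. The series title speaks of an obesity of late onset, and the mice here were young adults. Whole fat was used, so fewer cells of a type and less RNA per cell cannot be told apart in any value below. The duplicated genes Snrpn and Ndn separated the groups as labelled, with log2 values of 0.35 to 0.68 in patDp/+ fat against -0.84 to -0.55 in wild type fat for Snrpn, and of 1.33 to 1.57 in patDp/+ fat against 0.20 to 0.60 in wild type fat for Ndn. Each of 3 slides held 1 patDp/+ and 1 wild type array, arrays correlated at 0.987 or more over the fitted probes, and the mean net signal of negative controls was 37.8 on patDp/+ array 1 against 30.7 to 33.1 on the others. Probes well above background numbered 26086 on patDp/+ array 3, against 27352 to 29484 on the others. A level is the log2 processed signal of a probe less that array's 75th percentile, and a difference is patDp/+ minus wild type.

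New adipocytes arise from mesenchymal progenitors that sit between adipocytes, along vessels and in the sheath of the depot. These cells carry PDGF receptors, tyrosine kinases that drive proliferation and matrix production when PDGF binds. In mouse fat, progenitors marked by Dpp4 and Pi16 lie in the interstitial sheath and are held to give rise to more committed preadipocytes. Cd34 and Ly6a (Sca-1) are the surface proteins by which progenitors are usually sorted, although endothelial cells make both. Zfp423 promotes, and Dlk1 holds back, the step to the adipocyte.

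The probes are 60 bases long. Some genes had several probes, and for Pdgfra and Dpp4 these gave different answers. Probe sequences are therefore shown, 5′ to 3′ and in mm9 coordinates. These 4 lie upstream in their transcripts or cross an exon junction:
Pdgfra second probe (chr5:75559613-75559672, + strand): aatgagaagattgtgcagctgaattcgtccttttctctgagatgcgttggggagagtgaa
Dpp4 second probe (chr2:62192636-62194702, - strand, across an intron): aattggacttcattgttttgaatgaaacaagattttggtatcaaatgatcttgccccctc
Zfp423 second probe (chr8:90297522-90304128, - strand, across an intron): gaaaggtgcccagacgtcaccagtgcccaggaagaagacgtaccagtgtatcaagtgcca
Dlk1 second probe (chr12:110698428-110698487, + strand): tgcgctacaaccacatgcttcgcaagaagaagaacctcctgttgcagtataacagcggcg
Of the remaining probes, 30 bases are shown where the results turn on them. The other 2 Dpp4 probes overlap by 20 bases, in capitals, so they are not independent of each other:
Dpp4 overlapping probe (chr2:62170102-62170161, - strand), last 30 bases: atcatatatgCAAAGCACTGACTTCTAAGT
Dpp4 first probe (chr2:62170062-62170121, - strand), first 30 bases: CAAAGCACTGACTTCTAAGTaaaaccacag
Pdgfrl probe (chr8:42075859-42075918, + strand), first 30 bases: ttggaaagtgaagagtagtggaccaatggg
Pi16 probe (chr17:29465606-29465665, + strand), first 30 bases: gttctacagaggacatgattctggggatac
Pdgfra first probe (chr5:75593888-75593947, + strand), first 30 bases: tgtatatatctgttgctatgtagacttgga
Whether these lie in an untranslated region was not analysed here.

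Among the 10 genes, Pdgfrl was the one whose groups did not overlap, and it was lower in patDp/+ fat. Pdgfrl encodes a protein that resembles the ligand-binding part of the PDGF receptors and lacks their kinase. Its log2 level was -0.30, -0.39 and -0.34 in patDp/+ fat, against 0.10, 0.19 and 0.23 in wild type fat. The patDp/+ values lay close to one another, and the highest of them stayed below the lowest wild type value. Pdgfrl averaged -0.35 ± 0.04 in patDp/+ fat and 0.17 ± 0.07 in wild type fat (SD, n = 3 each). The limma difference was -0.52 ± 0.08 (SE), a ratio of 0.698 with a 95% interval of 0.614 to 0.795. This is the contrast that chose the gene, so no test is given. Within slides 1, 2 and 3 it was -0.40, -0.58 and -0.57. The differences under the alternatives ran from -0.55 to -0.49.

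Over the whole array no difference passed. limma with Benjamini-Hochberg adjustment called 0 of 27986 probes (0%), with a smallest adjusted p of 0.44, while 1473 probes had an unadjusted p under 0.05. Of all probes, 3.17% had an unadjusted p under 0.05 and were lower, 2.10% were higher, and 56.5% were below 0. The groups did not overlap on the lower side for 6.55% of probes and on the higher side for 3.97%. Against this, 5 of the 15 member probes were below 0 and 10 above. Groups that did not overlap were found on the lower side for 1 of 15, Pdgfrl, which was chosen for it, and on the higher side for 0. The 95% intervals of the other 14 probes all held 0, which leaves room for real differences of the widths given below.

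**Figure D1:**
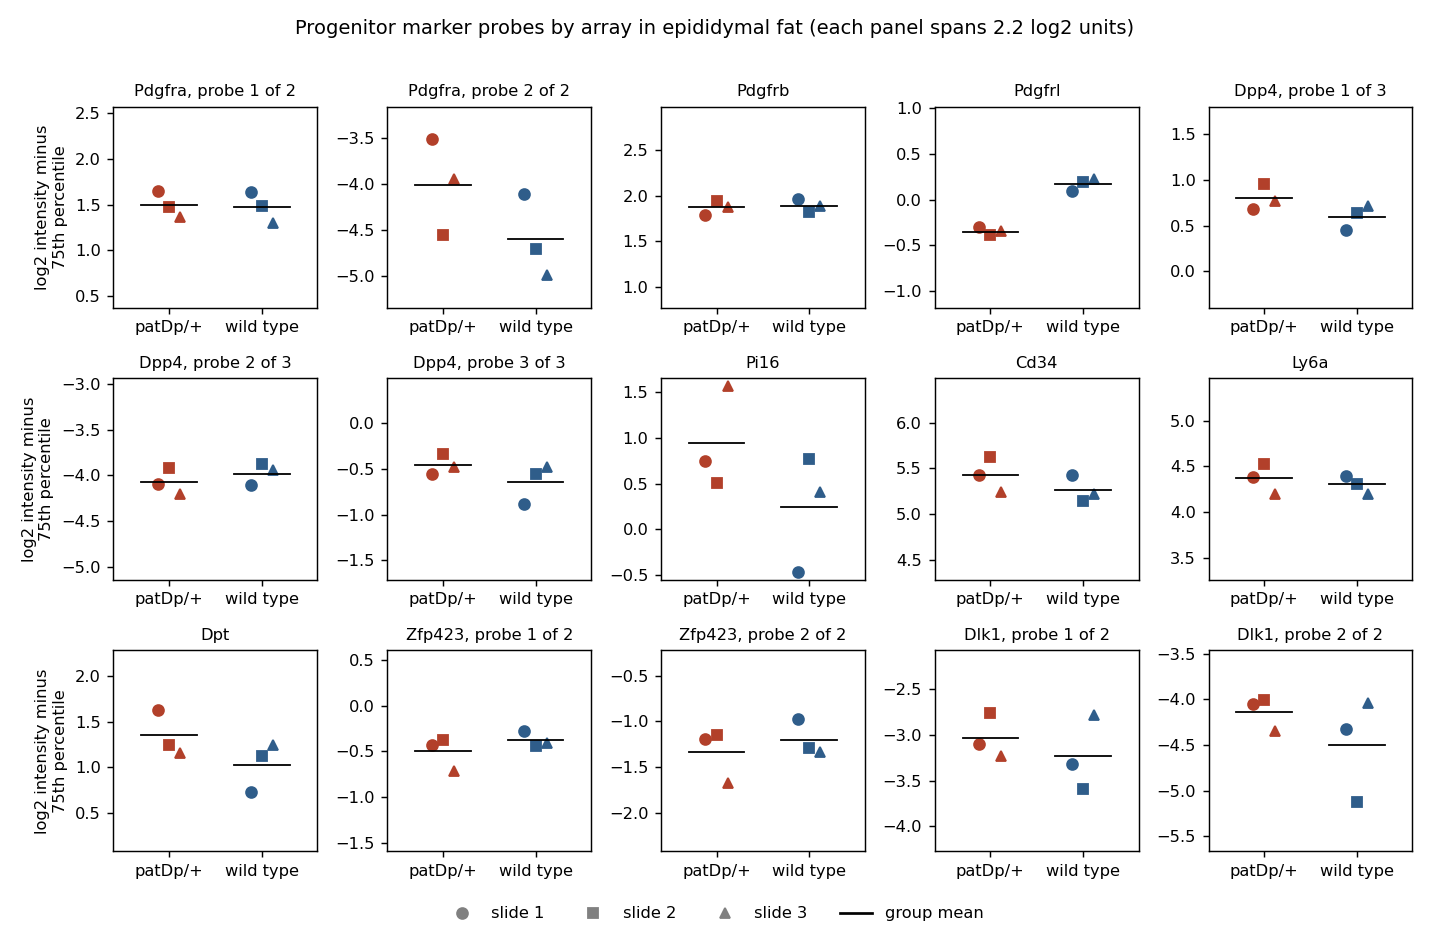
Log2 level of each member probe, scaled to the 75th percentile of its array, patDp/+ arrays at the left and wild type arrays at the right of each panel, with marker shapes for the 3 slides and lines for group means. Only in the Pdgfrl panel do all patDp/+ arrays (-0.39 to -0.30) lie apart from all wild type arrays (0.10 to 0.23), while Pi16 spreads over more than a log2 unit within each group.

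With the first Pdgfra probe and with Pdgfrb, the receptors differed between genotypes by less than the SD between arrays of a genotype. Pdgfra, the receptor that marks fat progenitors, had log2 levels of 1.65, 1.48 and 1.37 in patDp/+ fat, against 1.64, 1.49 and 1.30 in wild type fat with its first probe. The difference was 0.02 ± 0.12 (SE; 95% interval -0.27 to 0.31), and it ran from -0.06 to 0.10 over the alternatives. The Pdgfra values went with the slide: within slides 1, 2 and 3 the differences were 0.01, -0.01 and 0.06. This probe is printed at 10 places on every array, which gives the error between spots of an array but not that between arrays. The SD between its spots was 0.028 to 0.041 within an array, whereas the SD between array means was 0.14 in patDp/+ and 0.17 in wild type fat. The spread between arrays of a genotype was thus several times that between spots.

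**Figure D2:**
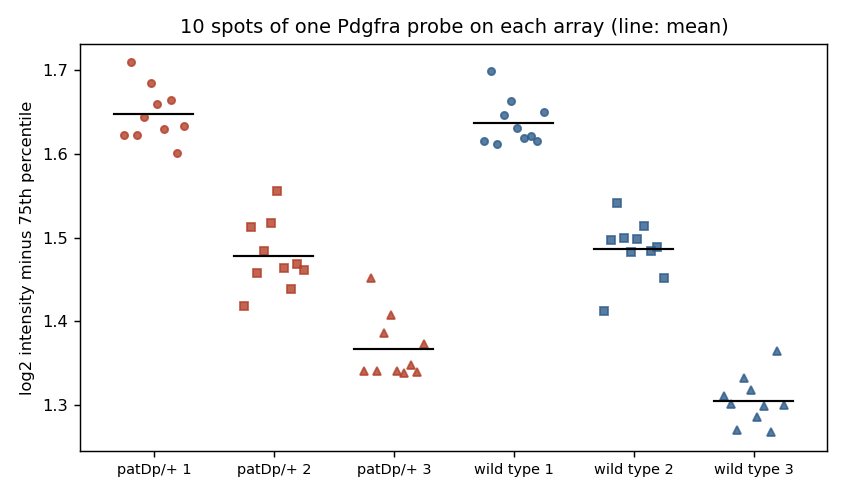
Log2 level, scaled to the 75th percentile of its array, at the 10 spots of the first Pdgfra probe, one column per array with patDp/+ arrays at the left, and a line at each mean. The spots of an array cluster within an SD of 0.041 or less, and the arrays of slide 1 (circles) lie highest and those of slide 3 (triangles) lowest in both genotypes.

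The second Pdgfra probe, which lies upstream, was dim, with processed intensities of 33.3 to 93.2. Its log2 levels were -3.51, -4.56 and -3.94 in patDp/+ fat, against -4.11, -4.71 and -4.99 in wild type fat. The groups overlapped, and the difference of 0.60 ± 0.33 (SE; 95% interval -0.19 to 1.38) was not shared by the first probe. It was 0.18 with the deposited table, and leaving out 1 array gave 0.35 (without patDp/+ replicate 1) to 0.87 (without patDp/+ replicate 2). Pdgfrb, the receptor of pericytes and of some progenitors, was measured by 1 probe on chromosome 18. It had 1.79, 1.94 and 1.88 in patDp/+ fat, against 1.96, 1.82 and 1.89 in wild type fat. Its difference was -0.02 ± 0.08 (SE; 95% interval -0.22 to 0.18), and its sign turned between settings (-0.12 to 0.02).

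The ligands lay slightly above 0. All 4 PDGF ligand genes were measured, and 4 of 4 were above 0 with a median difference of 0.12, against -0.02 over all genes. Pdgfd had 0.18 ± 0.11, Pdgfa 0.13 ± 0.10, Pdgfc 0.12 ± 0.10 and Pdgfb 0.07 ± 0.10 (SE), and none had an unadjusted p under 0.05 in limma (adjusted p 0.951 to 0.968). Of 15 genes that carry the signal inward from the receptors or control their uptake, 8 were below 0 and 7 above, with a median of -0.04. The kinase subunit gene Pik3ca (-0.15 ± 0.08) and the adaptor gene Grb2 (0.19 ± 0.10) had the smallest p. Related receptor tyrosine kinases had a median of -0.13 over 6 genes. They were Kit, the receptor of stem cell factor (-0.31 ± 0.13), Csf1r of macrophages (0.20 ± 0.11), Kdr (-0.24 ± 0.16), Flt1 (-0.18 ± 0.12) and Flt4 (-0.09 ± 0.11) of endothelium, and Flt3 (0.14 ± 0.34).

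Pi16 and 2 of the 3 Dpp4 probes had differences above 0, with groups that overlapped and 95% intervals that held 0. Pi16, a secreted peptidase inhibitor that marks these cells, had 0.75, 0.51 and 1.57 in patDp/+ fat, against -0.47, 0.77 and 0.41 in wild type fat. The patDp/+ mouse on slide 3 was highest and the wild type mouse on slide 1 lowest, and the groups overlapped. The difference was 0.71 ± 0.40 (SE), with a 95% interval of -0.25 to 1.67. Within slides 1, 2 and 3 it was 1.22, -0.26 and 1.16. Leaving out 1 array at a time gave 0.35 (without wild type replicate 1) to 0.97 (without wild type replicate 2).

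Dpp4 encodes a membrane protease that cuts signalling peptides and is also made by T cells and mesothelium. With its first probe it had 0.68, 0.96 and 0.77 in patDp/+ fat, against 0.45, 0.64 and 0.72 in wild type fat. The overlapping probe had -0.56, -0.34 and -0.48 in patDp/+ fat, against -0.88, -0.56 and -0.48 in wild type fat. On both, the lowest value was that of the wild type mouse on slide 1, and the values correlated at 0.96 over the 6 arrays, as a description of probes that share 20 bases. The differences were 0.20 ± 0.11 and 0.18 ± 0.13 (SE), with 95% intervals of -0.08 to 0.48 and -0.13 to 0.50. The probe across the intron was dim, at 53.9 to 69.4 in processed intensity, and had -0.09 ± 0.11. Its sign turned with normexp background correction (0.46).

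Other genes known from Dpp4+ interstitial progenitors all had differences above 0. Of a list of 16 such genes 15 were on the array, and all 15 were measured. All 15 were above 0, against 43.5% of all 19203 genes, and their median difference was 0.40, against -0.02 over all genes. An unadjusted p under 0.05 was reached by 9 of 15 on the higher side, against 2.33% of genes (3.31% on the lower side), and the groups did not overlap for 8 of 15, against 4.36% of genes (6.82% on the lower side). No gene of the list passed when adjusted over all probes. The list was written with earlier results of these data known, so these counts are a description.

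Wnt2, a Wnt ligand, was -1.70, -1.63 and -1.39 in patDp/+ fat, against -2.57, -2.25 and -2.10 in wild type fat. Its difference of 0.74 ± 0.15 (SE, limma adjusted p = 0.843) was the clearest of the list, and its groups did not overlap. Dact2, an intracellular Wnt and Nodal regulator, was -1.29, -0.53 and -0.80 in patDp/+ fat, against -1.84, -1.74 and -1.47 in wild type fat, with a difference of 0.81 ± 0.21. Uchl1, a ubiquitin hydrolase gene, was 1.1, 1.57 and 1.14 in patDp/+ fat, against 0.38, 0.66 and 0.69 in wild type fat, a difference of 0.69 ± 0.16. Pcolce2, which enhances procollagen processing, had 0.40 ± 0.12 (SE). In these 4 genes the sign was positive within each slide.

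The rest of the list ran from 0.19 for Anxa3 to 0.53 for Bmp7. Bmp7 (a BMP ligand), Efhd1, Emilin2 and Fndc1 were also without overlap between the groups. The elastic fibre gene Fbn1 had 0.49 ± 0.18, while Mfap5, Ackr3, Cd248, Cd55, Sema3c and Anxa3 overlapped and had unadjusted p of 0.0647 or more. The mean over the 15 genes differed by 0.52, 0.57 and 0.25 within slides 1, 2 and 3, and 15, 14 and 10 genes were higher within them. All 15 genes stayed above 0 under each of the 16 alternatives. Of these, the filters on dim probes, the slide block and the variance setting leave a difference of group means unchanged, so they could not turn a sign. The count at an unadjusted p under 0.05 was 5 without wild type replicate 1, 5 with normexp and 13 without patDp/+ replicate 3.

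**Figure D3:**
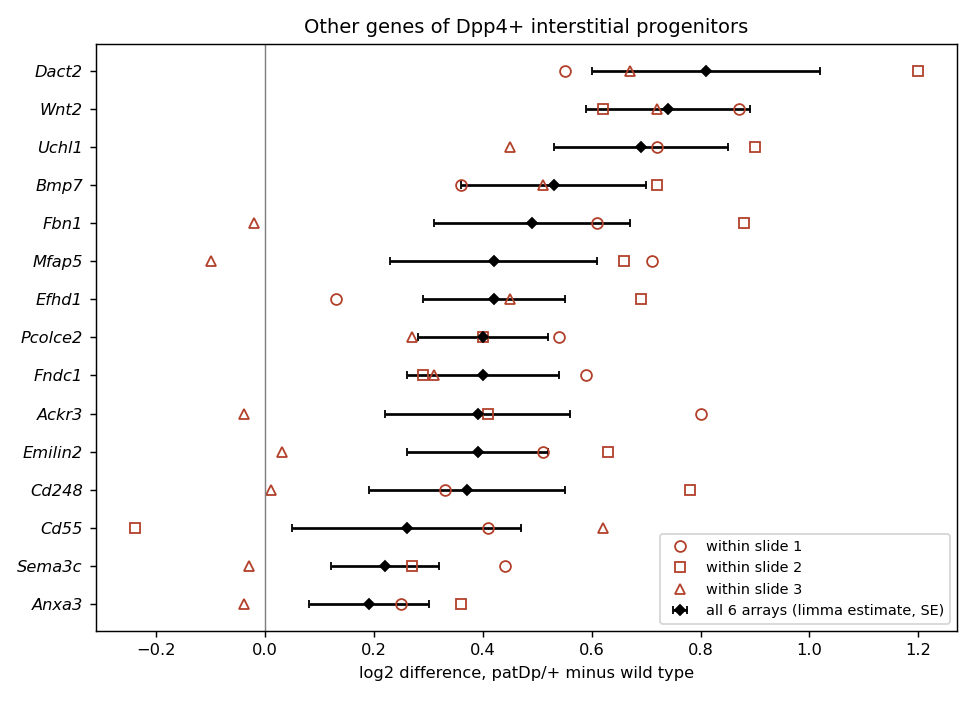
Log2 difference, patDp/+ minus wild type, of 15 other genes of Dpp4+ interstitial progenitors, as the limma estimate with its SE over 6 arrays (diamonds) and as the difference within each slide (open symbols). All estimates lie above 0, between 0.19 and 0.81, and the triangles of slide 3 fall near 0 for Fbn1, Ackr3, Mfap5, Sema3c, Cd248, Emilin2 and Anxa3.

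Mesothelial, macrophage and T cell markers also had differences above 0, whereas those of adipocytes, pericytes, endothelium and B cells lay mostly below 0, as given further on. Over all genes, 43.5% were above 0 and 56.5% below. All 9 mesothelial markers were above 0, with a median of 0.07, led by Msln (0.30 ± 0.16) and Muc16 (0.28 ± 0.21). The summed level of the mesothelial list, relative to the 75th percentile of the array, was 39.8 to 51.7 in patDp/+ fat against 32.6 to 44.7 in wild type fat. Its mean differed by 0.22, 0.37 and -0.21 within slides 1, 2 and 3, so on slide 3 it went the other way from the interstitial list. All 8 macrophage markers were above 0, with a median of 0.24, led by Itgam (0.42 ± 0.19), and within-slide means of 0.39, 0.37 and 0.01. Their summed level was 224 to 282 in patDp/+ fat against 212 to 232 in wild type fat. The 6 T cell markers had a median of 0.33 (summed level 0.796 to 0.958 against 0.606 to 0.723 in wild type fat), with Cd8a at 1.34 ± 0.13, but 0.51 with the deposited table. Cd8a was dim, with log2 levels of -3.65 to -3.25 in patDp/+ fat and -4.9 to -4.62 in wild type fat. Within slides 1, 2 and 3, 6, 3 and 5 of the 6 T cell markers were higher in patDp/+ fat. The part of mesothelial cells, macrophages and T cells in the differences above was not tested.

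The surface markers used for sorting and the matrix gene Dpt had groups that overlapped and 95% intervals that held 0. Cd34, a sialomucin, had 5.43, 5.63 and 5.24 in patDp/+ fat, against 5.43, 5.14 and 5.22 in wild type fat. The difference was 0.17 ± 0.13 (SE; 95% interval -0.15 to 0.49), and it came mostly from slide 2 (0.49, against 0.00 and 0.02 within slides 1 and 3). Endothelial genes, which share Cd34 and Ly6a, lay below 0 in 8 of 8 cases, against 56.5% of all genes. Their median was -0.17, led by Emcn (-0.22 ± 0.08, unadjusted p = 0.0389, adjusted p = 0.941 in limma). Their mean differed by -0.29, -0.25 and 0.05 within slides 1, 2 and 3, and on slide 3 the level of 5 of the 8 was higher in patDp/+ fat. Their summed level was 35.2 to 43.5 in patDp/+ fat and 41.8 to 45.4 in wild type fat.

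Ly6a, the gene of Sca-1, had 4.38, 4.52 and 4.20 in patDp/+ fat, against 4.39, 4.30 and 4.20 in wild type fat. Its difference was 0.07 ± 0.11 (SE; 95% interval -0.20 to 0.34), with a turn of sign under normexp (-0.06). Ly6 genes resemble one another closely, and hybridization across the family was not tested. Of 7 other Ly6 genes measured, Ly6d had -0.96 ± 0.31 and no overlap, Lynx1 0.28 ± 0.15 and Ly6h 0.40 ± 0.26, and Ly6c1 (-0.08 ± 0.11), whose product lies beside Sca-1 on stromal and endothelial cells, had the next smallest p. Dpt, the gene of dermatopontin, which binds collagen and decorin, had 1.63, 1.25 and 1.16 in patDp/+ fat, against 0.73, 1.12 and 1.24 in wild type fat. Here the patDp/+ and the wild type mouse of slide 1 were the extremes, and the difference was 0.32 ± 0.18 (SE; 95% interval -0.12 to 0.75), but leaving out either mouse of slide 1 gave 0.17.

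The preadipocyte factors did not separate the genotypes. Zfp423, a zinc finger transcription factor, had -0.43, -0.38 and -0.71 in patDp/+ fat, against -0.28, -0.44 and -0.41 in wild type fat with its first probe. The probe across the intron had -1.19, -1.15 and -1.68 in patDp/+ fat, against -0.97, -1.29 and -1.34 in wild type fat. Both probes were lowest in the patDp/+ mouse on slide 3, which had the highest Pi16, and correlated at 0.96 over the 6 arrays. Their differences were -0.13 ± 0.11 and -0.14 ± 0.18 (SE), with 95% intervals of -0.40 to 0.14 and -0.57 to 0.29, and the sign of the probe across the intron turned without patDp/+ replicate 3 (0.03). Over these arrays Pi16 and the 2 Zfp423 probes correlated at -0.93 and -0.90, where all points share an array and its scaling. Many pairs of member probes were compared over only 6 arrays, and Cd34 with Ly6a, for instance, reached 0.89. No relation between these genes was tested.

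Of 13 measured partners and regulators of Zfp423, 7 were below 0 and 6 above, with a median of -0.04 and 0 at an unadjusted p under 0.05 in limma. The preadipocyte transcription factor gene Ebf2 had -0.14 ± 0.07, Tcf21, a visceral stromal factor, 0.28 ± 0.15, Bmp2 0.33 ± 0.20 and Smad1 -0.09 ± 0.08. Dlk1 encodes a membrane protein of the Notch ligand family, made from the paternal allele. It was dim, with processed intensities of 83.7 to 155 and 28.9 to 65.2 on its 2 probes. The mm9 coordinates given for the first Dlk1 probe, which is 60 bases long, span only 37 bases. The first probe had -3.10, -2.76 and -3.23 in patDp/+ fat, against -3.32, -3.59 and -2.78 in wild type fat, and the second -4.05, -4.01 and -4.35 in patDp/+ fat, against -4.32, -5.12 and -4.04 in wild type fat. The wild type mouse on slide 2 was lowest on both probes, and the groups overlapped on both. The differences were 0.20 ± 0.23 and 0.36 ± 0.28 (SE). They were 0.02 and 0.05 without wild type replicate 2, 0.42 and 0.58 without wild type replicate 3, 0.09 and 0.10 with the deposited table, and 0.49 and 0.66 with normexp. On the first probe the difference was 0.06 without patDp/+ replicate 2 and 0.12 with array weights.

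Of 7 relatives and effectors of Dlk1, 4 were below 0, with a median of -0.06. Sox9, a transcription factor that Dlk1 keeps active in preadipocytes, was -1.33, -1.78 and -2.20 in patDp/+ fat, against -0.69, -1.08 and -1.18 in wild type fat. The groups did not overlap, and the difference was -0.78 ± 0.24 (SE; limma unadjusted p = 0.017, adjusted p = 0.931). Notch1 had -0.17 ± 0.09, Notch2 0.09 ± 0.08 and Meg3, the maternally expressed neighbour of Dlk1, 0.20 ± 0.13.

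**Figure D4:**
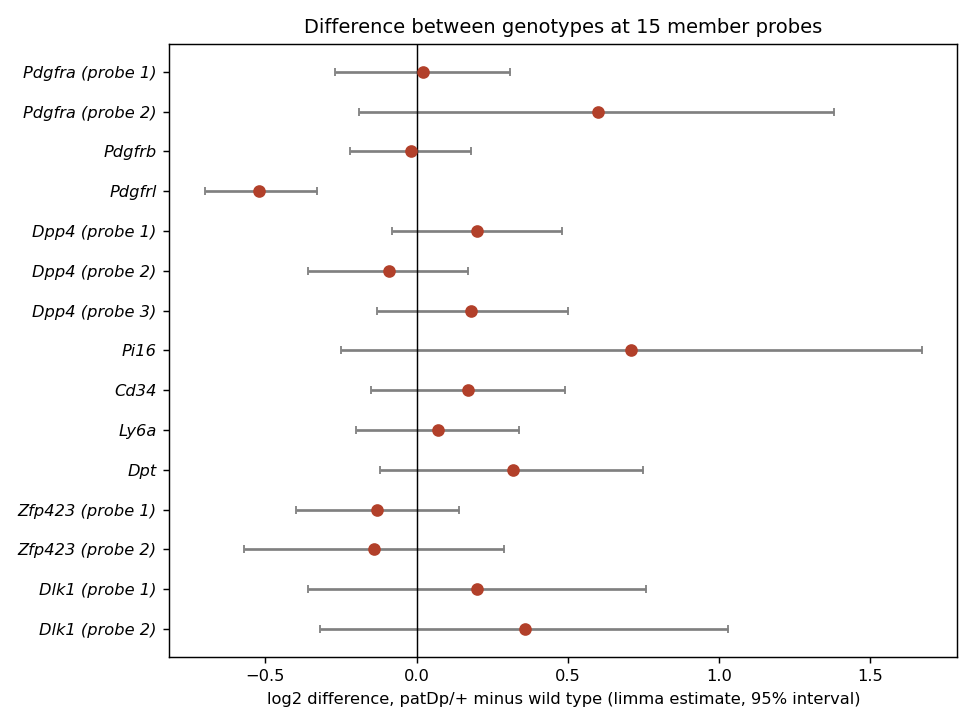
Log2 difference, patDp/+ minus wild type, at the 15 member probes with the 95% interval of the limma fit. The interval of Pdgfrl runs from -0.70 to -0.33, and the other 14 intervals include 0, the widest being that of Pi16.

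Lists of further stromal states stayed near the median of all genes. Of 12 genes of committed preadipocytes, 7 were above 0 and 5 below, with a median of 0.03. Icam1, an adhesion molecule that marks these cells and also inflamed endothelium, had 0.23 ± 0.07, and Sparcl1, a matrix-associated protein gene, -0.26 ± 0.10 (SE; both without overlap, limma adjusted p of 0.931 and 0.941). Bgn had 0.23 ± 0.18 and Col4a1 0.13 ± 0.13. Of 7 genes of the stromal cells that restrain adipogenesis, 6 were below 0, with a median of -0.09, and the lipid transporter gene Abcg1 had 0.28 ± 0.09. Clec11a (-0.15 ± 0.15), Igfbp7 (-0.09 ± 0.10) and Mgp (-0.12 ± 0.14) came next by p.

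Of 18 general fibroblast and mesenchymal surface genes, 13 were above 0, against 43.5% of all genes, with a median of 0.06. On the higher side 2 had an unadjusted p under 0.05 in limma, against 2.33% of all genes. These were Thy1 (0.44 ± 0.13) and Vim (0.26 ± 0.10). The Thy1 spot on patDp/+ array 1 was marked as an outlier, so its value rests on 5 arrays, and it was -0.62 with that spot kept. Nt5e had -0.52 ± 0.22 and Fstl1 0.30 ± 0.16. The mean over the fibroblast list differed by 0.20, 0.13 and -0.15 within slides 1, 2 and 3.

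Adipocyte genes had a median of -0.10 with 9 of 10 below 0, against 56.5% of all genes. Those below 0 included Retn (-0.19 ± 0.10), Plin1 (-0.12 ± 0.09) and Lipe (-0.11 ± 0.09), whereas Lep had 0.43 ± 0.19. Markers of pericytes and smooth muscle had a median of -0.14 over 10 genes, led by Rgs5 (-0.18 ± 0.10) and Kcnj8 (-0.21 ± 0.13), and their summed level was 83.8 to 90.4 in patDp/+ fat, against 78 to 100 in wild type fat. B cell markers had a median of -0.76 over 3 genes, with groups that overlapped for each gene. Their summed level was 0.593 to 1.41 in patDp/+ fat, against 1.31 to 1.86 in wild type fat. The mean over the 3 genes differed by -1.37, -0.37 and -0.40 within slides 1, 2 and 3. Of 6 markers of the epididymal epithelium, which lies next to this depot, 4 (Lcn5, Lcn8, Crisp1 and Rnase9) were well above background on 0 arrays and 1, Lcn9, entered the fit (-0.10 ± 0.12).

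**Figure D5:**
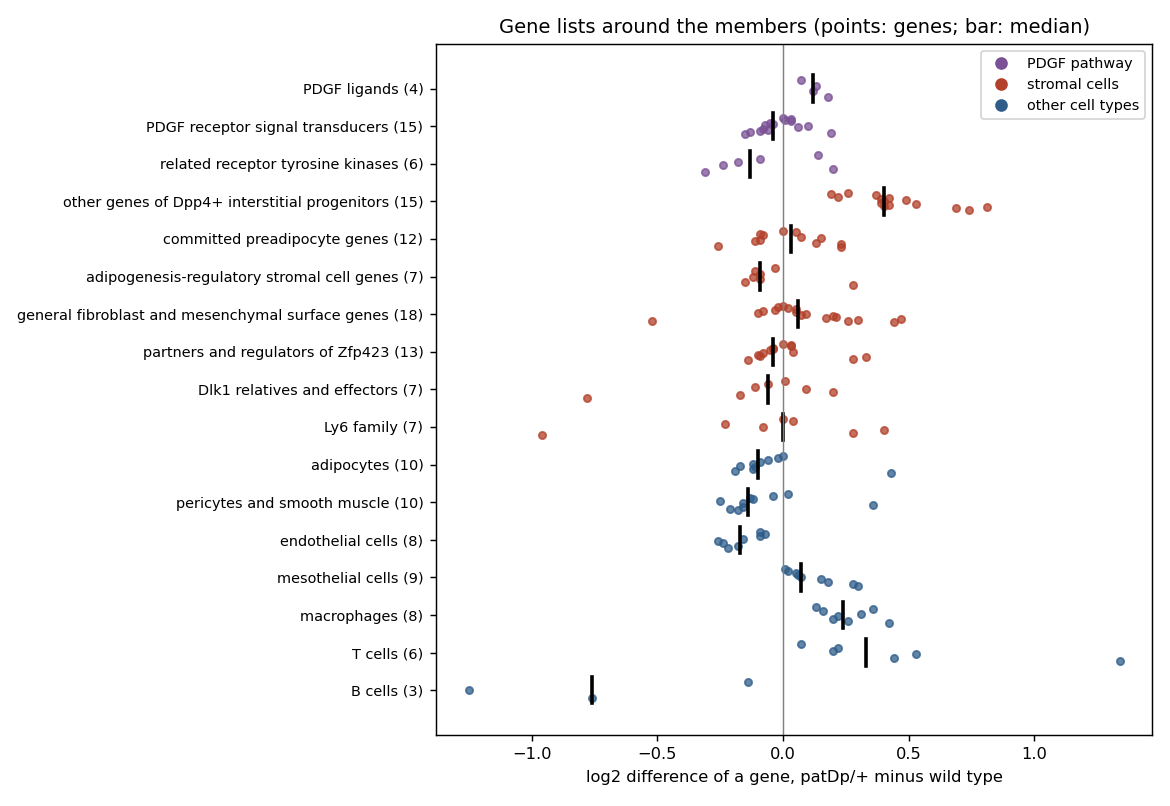
Log2 differences, patDp/+ minus wild type, of the measured genes of 17 lists (points) with the list median (bar), numbers of genes in brackets, and colours for PDGF pathway, stromal and other cell lists. The list of Dpp4+ interstitial progenitor genes lies wholly above 0 with a median of 0.40, that of B cells wholly below 0 with a median of -0.76.

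The genes most like Pdgfrl were named by Pearson correlation over the 6 arrays, as a description over 14483 genes with a symbol. They were Tha1 (0.991), Phf3 (0.988), Kctd14 (0.984), Tcstv3 (0.982) and Tia1 (0.981). All 5 were lower in every patDp/+ array than in any wild type array, as the likeness to Pdgfrl requires, with differences of -0.50 ± 0.10 for Kctd14 and -0.14 ± 0.07 for Phf3 (SE) at the ends. With the group means removed, the 5 closest genes were Cyp2d26, Crisp4, Pced1b, Olfr127 and Arhgap12 (0.992 to 0.994), none of which was among the first 5. Neither set held a gene of the lists above. Kctd14, Tcstv3, Cyp2d26 and Crisp4 were dim, with log2 levels between -5.00 and -4.05.

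Promoters are shown for Dpp4 and Pi16, which mark the interstitial cells, and for Wnt2, the leading gene of their list, from RefSeq (GRCm38.p6), as the 250 bases before the annotated start. Capitals mark matches on either strand to the GC box with its letters GGGCGG, the TATA box with TATAAA, the CCAAT box spelled by its name, the AP-1 site with TGANTCA, or the nuclear receptor element with AGGTCA, motifs whose letters do not contain one another:
Dpp4 (chr2:62412232-62412481, - strand): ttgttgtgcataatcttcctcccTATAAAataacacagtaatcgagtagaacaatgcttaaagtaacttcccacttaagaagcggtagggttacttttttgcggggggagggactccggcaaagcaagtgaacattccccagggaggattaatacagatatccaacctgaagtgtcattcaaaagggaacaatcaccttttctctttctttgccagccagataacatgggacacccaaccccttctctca
Pi16 (chr17:29318632-29318881, + strand): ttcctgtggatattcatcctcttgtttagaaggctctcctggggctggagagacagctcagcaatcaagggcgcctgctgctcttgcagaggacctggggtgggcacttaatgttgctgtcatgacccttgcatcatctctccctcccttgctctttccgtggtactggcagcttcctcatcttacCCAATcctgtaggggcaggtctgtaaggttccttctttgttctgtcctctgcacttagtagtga
Wnt2 (chr6:18030446-18030695, - strand): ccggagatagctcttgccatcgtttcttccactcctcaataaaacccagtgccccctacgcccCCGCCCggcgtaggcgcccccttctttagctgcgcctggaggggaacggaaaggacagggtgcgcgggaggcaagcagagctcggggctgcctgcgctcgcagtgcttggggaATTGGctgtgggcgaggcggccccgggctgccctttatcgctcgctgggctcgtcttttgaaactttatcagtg
Dpp4 held 1 TATA box, Pi16 1 CCAAT box, and Wnt2 1 GC box and 1 CCAAT box. Of the members, 7 had an entry that was read, and 1 of these 7, Zfp423, held a GC box. Of the Dpp4+ progenitor list, 11 genes had an entry, of which 10 held a GC box, 2 a TATA box and 2 a CCAAT box. The AP-1 site was held by 0 of the 11 and the nuclear receptor element by 2, against 5.89% and 13.5% of measured genes with an entry. Among 11524 measured genes with an entry, 60.1% held a GC box, 9.20% a TATA box and 39.8% a CCAAT box in a window of this length, and of all 32851 promoters 32.7%, 12.4% and 33.8%. A match describes letters only.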

How the data were processed

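Per the file headers, the one-colour Cy3 scans were read by Feature Extraction 9.5.1.1. The deposited processed intensity is background-subtracted and detrended within the array but not scaled between arrays. The mean and local background intensity of each spot were deposited as well. Agilent Feature Extraction 9.5 and limma 3.18.2 appear in the submitters' processing notes. The authors also deposited quantile-normalized log2 values (median 7.58 per column), with no background correction named in the sources. They served as an alternative.

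Log2 processed intensities were scaled by subtracting each array's 75th percentile, with outlier spots left out and spots of a probe averaged. Probes well above background on at least 3 of 6 arrays were kept (27986 of 41174). Groups were taken from the sample titles, 3 against 3, and tested in R 4.3.3 by limma 3.58.1 (lmFit, eBayes, two-sided, Benjamini-Hochberg over all kept probes, threshold 0.05). The code was tested on simulated data. The number of arrays limits the precision. In lists, a gene is its kept probe with the highest mean (19203 genes). Gene names were updated through 27050 matched RefSeq accessions. The members, the lists and the rules were chosen with earlier results of these data known. Named are all members, all PDGF ligands and related kinases, up to 4 genes of the smallest p in each list, those singled out within the Dpp4+ list after their values were seen, and the 5 genes most like Pdgfrl. Opcml, Col6a3 and Ly6g of the lists were not analysed here, and 1 further B cell marker is not reported here. Same-numbered arrays share a slide, so the slide block and the replicate block are 1 fit. Deviations of same-numbered arrays from their group means correlated at 0.118, -0.0959 and -0.0309, so the numbers were not used as pairs.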

Additional observations from a re-analysis of the deposited data

How the results depend on the processing

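Pdgfrl kept its direction under all 16 alternatives, 1 member probe had no overlap on the lower side in each, and the count of probes past the adjusted threshold was 0 in each. Leaving out an array cannot make separated groups overlap. The filters, the slide block, the array weights and the variance setting reuse the same values. These settings therefore do not test the separation of Pdgfrl, which was chosen for it. The count of all probes at an unadjusted p under 0.05 depended on the setting. On the lower side (886) it was 337 with normexp and 579 to 1085 when 1 array was left out. On the higher side (587) it was 907 with no filter on dim probes, 881 with array weights, 336 without patDp/+ replicate 1 and 1428 without patDp/+ replicate 3. With 1 probe per gene 3 members were below 0. The replicate block, which equals the slide block, gave 1 member probe on the higher side at an unadjusted p under 0.05, the dim second Pdgfra probe, as did 2 of the settings without 1 array (range 0 to 1), and it changed no other member call. Member probes without overlap on the higher side were 2 with normexp, 1 with the deposited table and 1 to 4 when 1 array was left out. For the Dpp4+ list, the count at an unadjusted p under 0.05 was 5 with normexp and 5 to 13 when 1 array was left out. Its genes without overlap numbered 6 with normexp and 8 to 13 when 1 array was left out, which cannot lower that count. Single genes turned sign as follows, and none of them had an adjusted p under 0.05 in limma. Among them only Thy1 had an unadjusted p under 0.05 in the main limma fit (0.0198). With normexp Gab1 had 0.10, Flt4 0.53, Notch2 -0.03, Cd79a 0.63 and Lcn9 0.68. Thy1 had -1.17 with the deposited table and -0.62 with outlier spots kept. Pdgfb had 0.00 with array weights and -0.02 to 0.14 when 1 array was left out. With 1 array left out, Flt3 ran from -0.18 to 0.42, Cd79a from -0.32 to 0.11, Flt4 from -0.18 to 0.00 and Mgp from -0.25 to 0.01. The cause of these turns was not tested. Signal over background limits the dim second probes of Pdgfra, Dpp4 and Dlk1.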
